A study of Schizosaccharomyces pombe with 6 samples.

Results

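The right telomeric region of chromosome II of fission yeast (Schizosaccharomyces pombe) is the last tiled stretch of the chromosome, array bases 4502451 to 4541560. Its members are the 782 non-control probes placed there by their position on the array, of 43993 in all, by a rule that uses no measured value, although the region itself was picked with earlier results of these data known. The probes are 60 bases long and start every 50 bases, 391 on the forward and 391 on the reverse strand, and together they span 39110 bases. Distances are counted from the last tiled base, which by the match to the ASM294v3 reference lies 44 bases short of the end of the assembled chromosome. Against that reference the array numbering runs 1800 bases ahead here, and the array files name no genome build.

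Newly made histone H3 was mapped on 6 dual-colour tiling arrays, to ask how nucleosome turnover depends on the mutated factors. The groups are amo1D, a deletion of the gene for the nuclear rim protein Amo1, rix1E414K, a point mutant of the rixosome subunit Rix1, pob3D, a deletion of the gene for the FACT histone chaperone subunit Pob3, and wild type (WT), with 1 array for each mutant and 3 for WT. Cells of every group carried a plasmid with FLAG-tagged H3.2 under the inv1 (invertase) promoter, were held in 15 mM hydroxyurea for 4 h in 8% glucose to block replication, and then made tagged H3 for 2 h in 4% sucrose with the drug. Chromatin was fixed with 1% formaldehyde for 20 min and sheared to 400 to 600 bp, and the FLAG precipitate was labelled with Cy5 and the whole-cell extract with Cy3, so the log2 ratio of Cy5 over Cy3 measures tagged H3 relative to input DNA and not to total H3.

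Ends of fission yeast chromosomes are packed in heterochromatin that carries methylated histone H3 lysine 9 and is bound by Swi6, a protein of the HP1 family. Heterochromatin is recruited there through the shelterin proteins on the telomeric repeats and through RNA interference acting on a sequence inside the tlh helicase genes that resembles the centromeric repeats. FACT removes and deposits H2A-H2B dimers and holds H3-H4 during transcription, and its loss is known to raise histone exchange in yeast chromatin.

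Most of the region is shared with other chromosome ends, so most of its probes read several places at once. Of the 782 probes, 147 matched 1 place in the reference exactly, 232 matched 2, 299 matched 3 and the rest 4 to 6, and 81.2% matched more than 1, against 1.19% of euchromatic probes of chromosome II. The left end of chromosome I held 538 of the probes, its right end 294 and the left end of chromosome II 250, while 0 matched a place outside the chromosome ends. Long alignments found with blastn run along the region. Bases 4504575 to 4514723 equal the left end of chromosome II over 10149 columns at 100% identity, 4515372 to 4525760 align with the right end of chromosome I at 99.2%, and 4521664 to 4534346 align with the left end of chromosome I at 99.8%. The chromosome I left alignment starts at that chromosome's first assembled base, so copies there of the outermost 7.21 kb could not be looked for. The chromosome II left alignment likewise starts at base 1 of its chromosome, 26.8 kb from the tiled end. The chromosome I right alignment reaches to 15.8 kb from it, at base 5579133, where assembled chromosome I ends. Any continuation of either of these alignments toward the end lies outside the assembly, so the match counts are lower bounds.

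A stretch of tlh2 is shown beside its centromeric counterpart because heterochromatin at chromosome ends is tied to this resemblance: 505 columns, 10652 to 11129 bases from the tiled end, align with the repeats of centromere 2 at 87.1% identity. Its longest gap-free block, 106 bases with 97 identical, is printed from ASM294v3 for both places, with the longest identical run, 25 bases, in capitals. The tlh2 copy is chrII:4528829-4528934, forward strand, at array bases 4530629 to 4530734, and the centromeric copy is chrII:1610737-1610842, forward strand.
tlh2: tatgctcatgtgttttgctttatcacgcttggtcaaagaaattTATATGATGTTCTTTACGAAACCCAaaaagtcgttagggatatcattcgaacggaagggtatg
centromere 2 repeat: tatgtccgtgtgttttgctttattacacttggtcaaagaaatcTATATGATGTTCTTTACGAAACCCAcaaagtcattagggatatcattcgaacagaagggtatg

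The reference annotates 40 genes in the region, and each had at least 2 probes: 8 protein-coding genes, 4 pseudogenes and 28 long noncoding RNA genes. The coding gene closest to the end is tlh2, at array bases 4528685 to 4534699 on the forward strand, which encodes a telomere-linked helicase of the RecQ type. Of its 120 probes 111 also match the left end of chromosome I, where the annotation has the copy tlh1 over bases 1 to 5662. A value for tlh2 is thus a value for both genes, and for any copy outside the assembly. The other coding genes lie further in and are annotated only as members of small S. pombe protein families or as transmembrane or uncharacterized proteins. The outermost 6.86 kb holds noncoding RNA genes and no coding gene.

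The amo1D array had lost amo1 from its whole-cell extract: log2 Cy3 over the gene's 31 probes was -9.41 relative to the array median in amo1D, against -0.91, -0.86 and -0.88 in WT. No probe of rix1 or pob3 was used here, so their labels were not checked in this way. Median processed Cy5 intensity ranged over the arrays between 1018 and 1150, median Cy3 between 993.2 and 1145, and 780 of the region's probes were well above background in both channels on all arrays. By slide, amo1D was hybridised beside WT replicate 1, rix1E414K beside replicate 2 and pob3D beside replicate 3. Whether the WT replicates are separate cultures is not in the labels, and a p-value given here rests on the spread among those arrays alone, which could be technical. WT replicate 2 stood apart: it was the lowest WT array in 38 of the 40 bins of 1 kb, while replicate 3 was the highest in 32. Over the region replicate 2 lay 0.46 log2 below the mean of the other WT arrays, and results are therefore also given without it.

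In WT, the region held less tagged H3 per input DNA than euchromatin on 2 of the 3 arrays and about as much on the other. Its mean log2 ratio, over 1 kb bins and relative to the median probe of each array, was -0.10 in amo1D, -0.11 in rix1E414K and 0.20 in pob3D, against -0.15, -0.52 and 0.03 in WT. The WT mean was -0.21 ± 0.28 (SD, n = 3), against 0.04 ± 0.01 (SD, n = 3) over the 1995 euchromatic bins, -0.38 ± 0.16 (SD, n = 3) over the 11 bins of the adjoining subtelomere, -0.48 ± 0.13 (SD, n = 3) over the silent mating-type interval and -0.81 ± 0.38 (SD, n = 3) over the pericentromeric repeats. Among the WT arrays replicate 3 was level with its own euchromatin, at 0.03 in the region and 0.03 in euchromatin. The region's mean was lower than euchromatin on the amo1D and rix1E414K arrays and higher on the pob3D array.

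**Figure D1:**
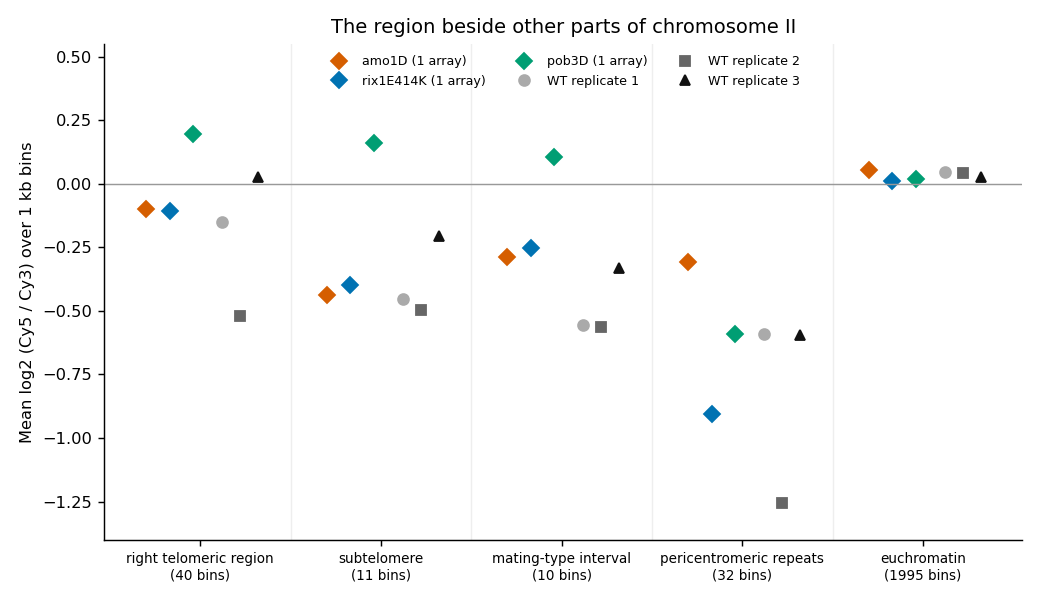
Mean log2 ratio of Cy5 over Cy3 (vertical axis) in 5 parts of chromosome II, 1 point per array, mutants as coloured diamonds and WT replicates in grey and black. In the telomeric region the pob3D point, at 0.20, is above all WT points, while amo1D and rix1E414K, at -0.10 and -0.11, lie between them.

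The level was not even along the region, and its main peaks and a trough next to tlh2 recurred on every array. The highest WT bins were those at 22 to 23 kb, with a mean of 0.36, at 4 to 5 kb, with 0.29, and at 23 to 24 kb, with 0.25. At 22 to 23 kb the log2 ratio was 0.59 in amo1D, 0.54 in rix1E414K and 0.83 in pob3D, against 0.41, -0.02 and 0.70 in the WT replicates. At 4 to 5 kb it was 0.57 in amo1D, 0.44 in rix1E414K and 0.83 in pob3D, against 0.37, -0.12 and 0.62 in the WT replicates. Both bins were among the 3 highest on each of the 6 arrays, between -0.12 in WT replicate 2 and 0.83 in pob3D, and neither holds a coding gene or pseudogene. The lowest bin, at 6 to 7 kb, covers the 3′ end of tlh2 and the bases beyond it and had -0.74 in amo1D, -0.68 in rix1E414K and -0.43 in pob3D, against -0.98, -1.12 and -0.64 in the WT replicates. The next lowest were at 17 to 18 kb, with a WT mean of -0.58, and 18 to 19 kb, with -0.57. In WT, 12 of the 40 bins lay below the lowest 5% of euchromatic bins (-0.35) and 0 above the highest 5% (0.55), while the SD over bins was 0.27 in the region and 0.28 in euchromatin. Over the 40 bins the profiles of WT arrays correlated with each other at Pearson r of 0.67 to 0.80 (the bins share their probes and base composition). The amo1D profile was most like WT replicate 1 (r = 0.85), rix1E414K most like replicate 3 (r = 0.84) and pob3D most like replicate 2 (r = 0.85), although replicate 2 had the lowest and pob3D the highest level. The WT log2 ratio of a bin correlated with its log2 Cy3 at r = 0.62, with its GC content at 0.24 and with its number of matches at 0.05, over 40 bins.

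**Figure D2:**
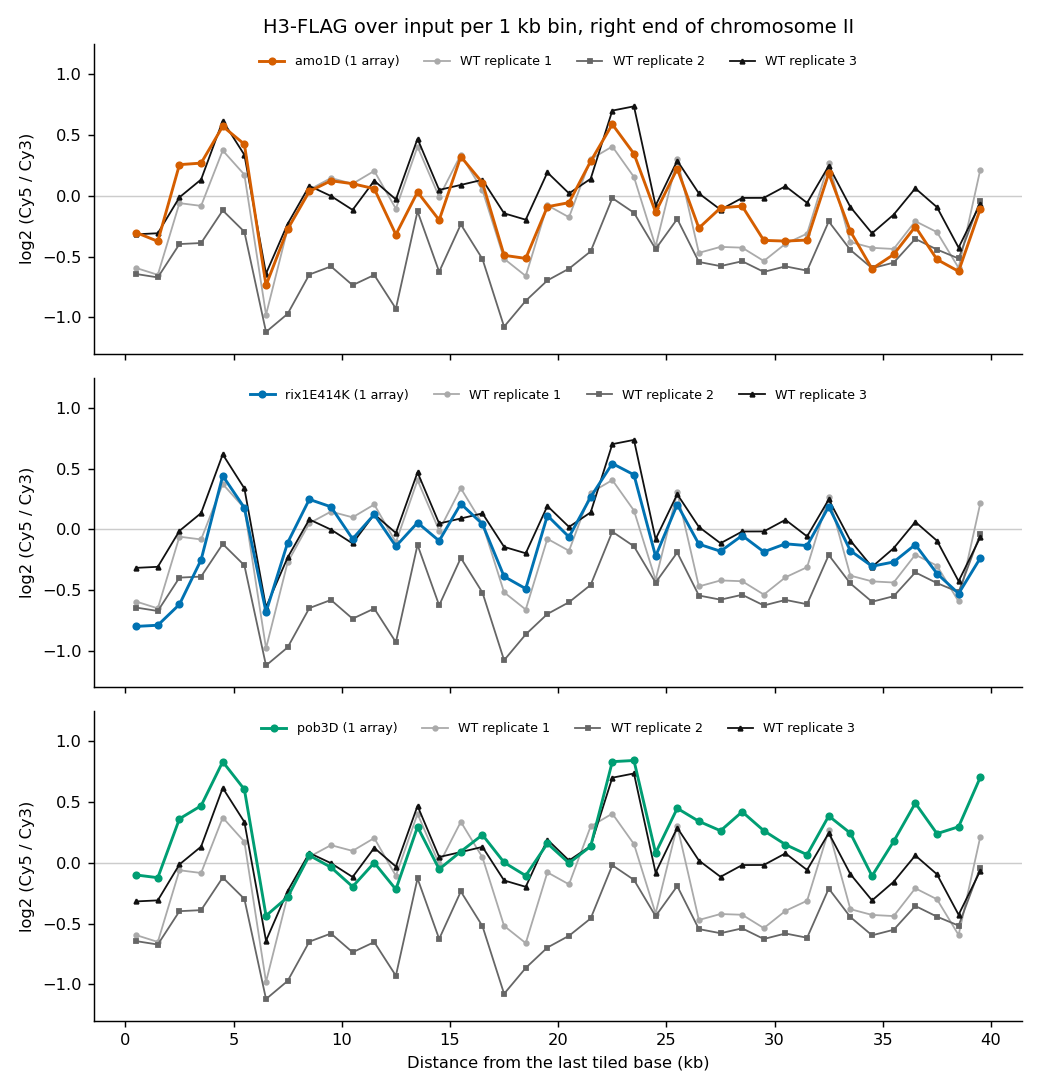
Mean log2 ratio of Cy5 over Cy3 per 1 kb bin (vertical axis) against distance from the last tiled base in kb (horizontal axis), 1 panel per mutant with the same 3 WT replicates in grey and black. All arrays peak at 4 to 5 kb and between 22 and 24 kb and dip at 6 to 7 kb, and pob3D runs above the WT replicates from 22 kb inwards.

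In pob3D, the ratio of tagged H3 to input DNA was above every WT array along most of the region, though no single bin passed the test across the array. The region mean was 0.41 log2 above the WT mean, against a WT SD of 0.28, and above each of the 3 WT arrays. Without WT replicate 2 the difference was 0.26, and against the WT array of its slide 0.17. With 1 array against 3, a permutation test cannot give a one-sided p below 0.25. All 40 bins lay above the WT mean, as did 48.8% of all 2203 bins of the array. In 28 bins pob3D lay above all 3 WT arrays, against 29.1% of all bins, and in 0 below all of them, against 33.2%. The median difference was 0.44 over the region's bins and -0.01 over all bins. In the limma fit over all 2203 bins, 0 bins of the region passed an adjusted p of 0.05 (0% of all bins did) and the smallest adjusted p was 0.291. At an unadjusted limma p under 0.05, 13 of the 40 were higher, against 6.81% of all bins, and 0 were lower, against 4.36%.

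The difference was smallest at 7 to 16 kb, which holds most of tlh2, and about as large on either side. Its mean was 0.50 at 0 to 7 kb, 0.12 at 7 to 16 kb and 0.49 at 16 to 40 kb, zones drawn after the values were seen. The largest differences of single bins lay on the centromere side. The 28 bins above all WT arrays were those at 0 to 7, 16 to 19 and 22 to 40 kb, and the other 12 all lay between 7 and 22 kb. The bin at 38 to 39 kb, which holds no coding gene, had 0.30 in pob3D, against -0.59, -0.52 and -0.43 in WT, a difference of 0.81 with a standard error of 0.11 (limma adjusted p = 0.291). The WT arrays spread less there (SD 0.08, n = 3) than in any other of the 40 bins. Without WT replicate 2, this was the 1 bin of the region past the limma threshold (adjusted p = 0.0352), when 1.59% of all bins passed. At 28 to 29 kb pob3D was 0.75 above the WT mean, with 0.42 in pob3D, against -0.43, -0.54 and -0.02 in WT, and at 26 to 27 kb 0.67 above it. The innermost bin, at 39 to 40 kb, had 2 probes and differed by 0.67. The smallest differences were 0.03 at 15 to 16 kb, 0.05 at 13 to 14 kb and 0.06 at 10 to 11 kb, all within the WT range. Inwards of the region, the next bin had 0.67 in pob3D, against 0.08, -0.07 and -0.18 in WT, and the one after it had 0.08 in pob3D, against -0.21, -0.49 and -0.42 in WT, both above all WT arrays. The third had 0.30 in pob3D, against 0.31, 0.02 and 0.03 in WT, within the WT range. Over the subtelomere pob3D was 0.55 above WT, over the mating-type interval 0.59 and over the pericentromeric repeats 0.22, and whether these differ from the region's 0.41 was not tested.

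**Figure D3:**
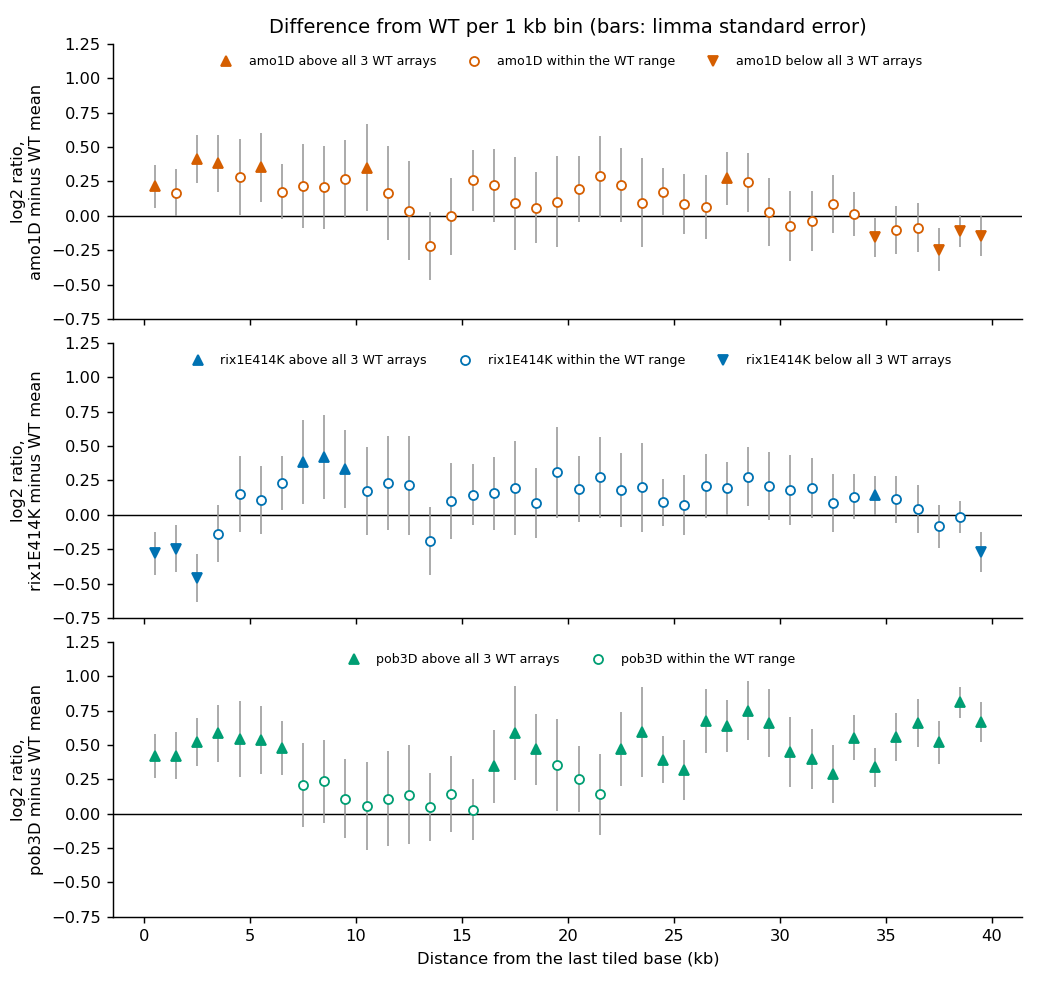
Mutant minus WT mean of the log2 ratio per 1 kb bin (vertical axis, bars are limma standard errors) against distance from the last tiled base in kb. Filled triangles mark bins above (pointing up) or below (pointing down) all 3 WT arrays: 6 and 4 in amo1D, 4 and 4 in rix1E414K, and 28 and 0 in pob3D.

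In pob3D, neither channel alone was above all WT arrays in the same bins as the ratio. Over the region log2 Cy5, relative to the array median, was 1.13 in amo1D, 1.24 in rix1E414K and 1.41 in pob3D, against 0.92, 0.23 and 1.36 in WT. Log2 Cy3 was 1.24 in amo1D, 1.35 in rix1E414K and 1.18 in pob3D, against 1.09, 0.74 and 1.32 in WT. The pob3D array was the highest in the precipitate, close above WT replicate 3, and within the WT range in the extract, and WT replicate 2 was the lowest in both channels. In Cy5 pob3D differed from the WT mean by 0.57, about the SD of the WT arrays (0.57, n = 3). In Cy5 pob3D was above all WT arrays in 28 of 40 bins, against 25.5% of all bins, and below all in 0, against 21.4%. In Cy3 it was above all WT arrays in 12, against 22.9% of all bins. At 16 to 40 kb, where 21 of 24 bins were above all WT arrays in the ratio, 13 were in Cy5 and 2 in Cy3. At 7 to 16 kb, where 0 of 9 were in the ratio, 8 were in Cy5 and 9 in Cy3. Against WT replicate 3, of the same slide, pob3D at 16 to 40 kb differed by 0.24 in the ratio. In Cy5 it differed there by -0.01 and in Cy3 by -0.27. These zones were drawn after the values were seen. Over the 5 kb windows pob3D minus WT in Cy5 lay between 0.43, at 25 to 30 kb, and 0.69, at 15 to 20 kb. In Cy3 it was 0.10 at 0 to 5 kb, 0.41 at 10 to 15 kb, -0.21 at 25 to 30 kb and -0.10 beyond 35 kb. The ratio difference was lowest, at 0.10, in the window where extract DNA of pob3D was highest relative to WT, and highest, at 0.61 and 0.64, in those where it was lowest. Cy3 is the denominator of the ratio, so this opposite order is partly built in.

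**Figure D4:**
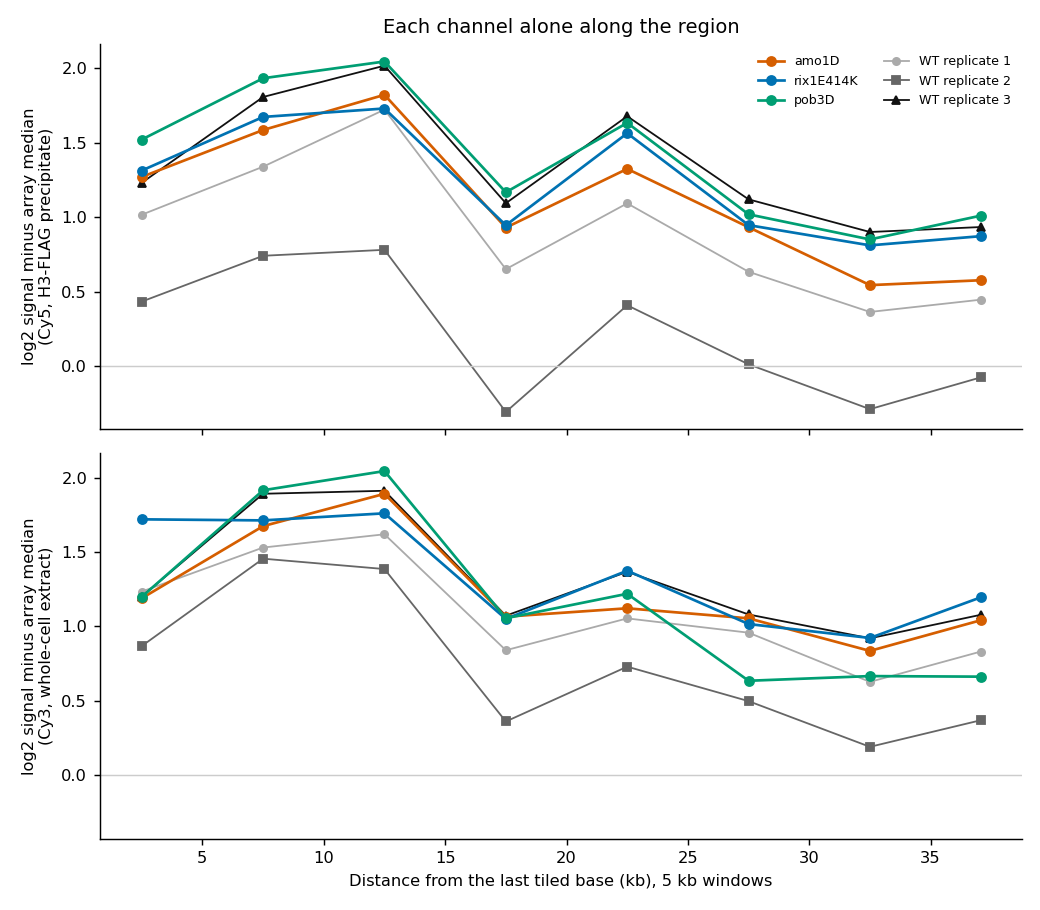
Log2 processed signal minus the array median in 5 kb windows (vertical axes; Cy5 of the precipitate above, Cy3 of the extract below) against distance from the last tiled base in kb. In Cy5 pob3D is at or near the top throughout, while in Cy3 it is highest at 10 to 15 kb, at 2.04, and at 0.63 at 25 to 30 kb, between WT replicates 1 and 2.

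At tlh2, the helicase gene, no mutant differed from the WT mean by more than the SD of the WT arrays (0.43, n = 3). The log2 ratio over its probes was -0.07 in amo1D, 0.02 in rix1E414K and -0.13 in pob3D, against -0.01, -0.78 and -0.05 in the WT replicates. The mutants and WT replicates 1 and 3 all lay between -0.13 and 0.02, and WT replicate 2 alone was far lower. Only rix1E414K was above all 3 WT arrays, by a narrow margin. The differences from the WT mean were 0.21 in amo1D, 0.30 in rix1E414K and 0.15 in pob3D, each with a standard error of 0.32. Their limma adjusted p-values over 2178 genes were 0.979, 0.906 and 0.858. Without WT replicate 2 the amo1D and pob3D differences changed sign, to -0.04 and -0.10, and the rix1E414K one was 0.05. Within slides the difference was -0.05 in amo1D, 0.80 in rix1E414K, which shared a slide with WT replicate 2, and -0.08 in pob3D. In pob3D both channels of tlh2 were high: Cy5 was 2.26, against 1.70, 0.89 and 2.19 in WT, and Cy3 was 2.35, against 1.73, 1.66 and 2.24 in WT. The centromere-like stretch whose core is printed with the sequences, read by 9 probes, had a log2 ratio of 0.06 in amo1D, -0.20 in rix1E414K and -0.25 in pob3D, against 0.08, -0.83 and -0.17 in the WT replicates. The other 111 probes of tlh2 had -0.08 in amo1D, 0.04 in rix1E414K and -0.12 in pob3D, against -0.02, -0.78 and -0.04 in WT. The WT mean of log2 Cy3 was 2.61 over the centromere-like stretch and 1.82 over the other probes. Whether DNA of the centromeric repeats also binds the probes of this stretch was not tested.

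Among the 12 coding genes and pseudogenes, the 8 nearest the centromere were above all WT arrays in pob3D and the 4 nearest the end were not. Of all 2178 genes 26.3% were above all WT arrays in pob3D and 35.4% below all, as 0 of the 12 were. SPBPB2B2.18, annotated as a conserved fungal protein, had 0.51 in pob3D, against -0.17, -0.33 and 0.08 in WT, a difference of 0.65 (limma adjusted p = 0.511). SPBCPT2R1.03, an uncharacterized protein, had 0.28 in pob3D, against -0.40, -0.58 and -0.06 in WT, a difference of 0.63 (limma adjusted p = 0.511). In both genes pob3D stood above the highest WT array, replicate 3, which shared its slide. SPBPB2B2.19C, a transmembrane protein of a family found in S. pombe, had 0.16 in pob3D, against -0.42, -0.53 and -0.15 in WT, and ftm7, which also encodes a transmembrane protein, had 0.10 in pob3D, against -0.43, -0.49 and -0.16 in WT. The differences were 0.31 at SPBCPT2R1.01C and 0.37 at SPBCPT2R1.04C, which are annotated as members of 1 family of proteins of unknown function, 0.29 at SPBCPT2R1.02 and 0.33 at the pseudogene SPBCPT2R1.05C. The pseudogenes SPBCPT2R1.06C, SPBCPT2R1.07C and SPBCPT2R1.10, between these and tlh2, differed by 0.36, 0.07 and -0.01 and lay within the WT range. In limma 0 of the 40 genes passed an adjusted p of 0.05 (0% of all genes) in any mutant, and at an unadjusted p under 0.05, 10 were higher in pob3D, against 4.55% of all genes, and 0 lower, against 4.96%. At the same unadjusted p, 2 of the 40 were higher in amo1D, against 2.39% of all genes, and 1 was lower in rix1E414K, against 4.32%. Of the 28 noncoding RNA genes 16 were above all WT arrays in pob3D, with differences from 0.04 to 0.66 and a median of 0.33.

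**Figure D5:**
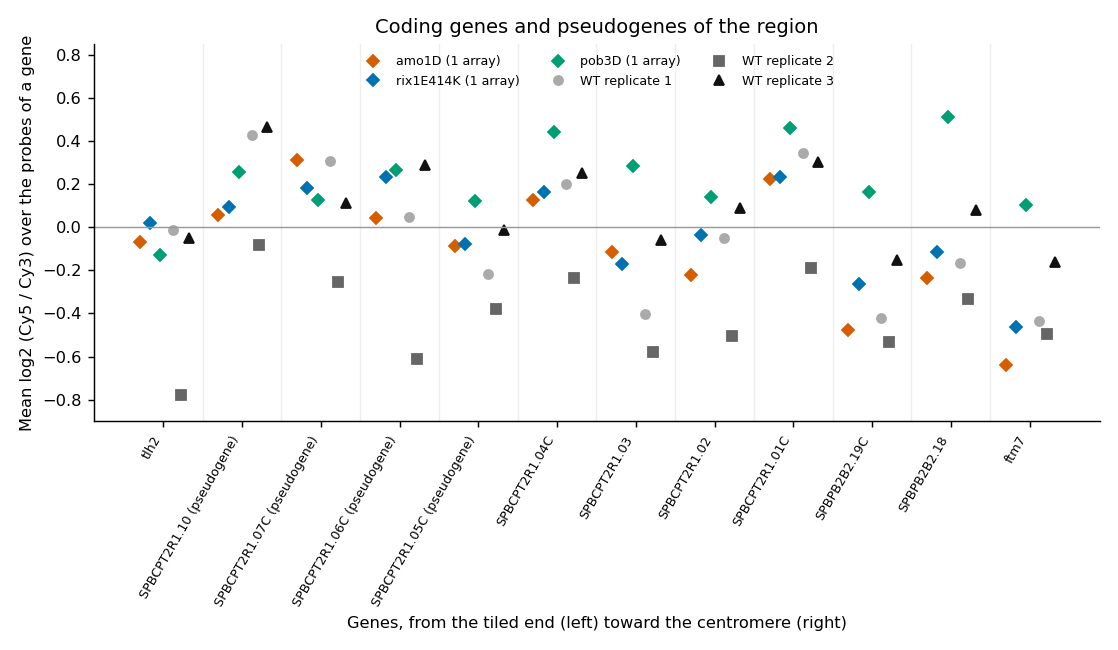
Mean log2 ratio of Cy5 over Cy3 over the probes of each of the 12 coding genes and pseudogenes (vertical axis), ordered from the tiled end on the left, 1 point per array. The pob3D diamonds are above all WT points at the 8 genes on the right, and at tlh2 WT replicate 2, at -0.78, lies far below the other arrays.

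In amo1D, the region mean did not differ from WT beyond the WT spread. In 5 kb windows the difference went from positive at the end to negative beyond 35 kb, a trend that was not tested. The region differed by 0.11 from the WT mean, by -0.04 without WT replicate 2 and by 0.05 within its slide. Of the 40 bins 30 were above the WT mean, against 51.4% of all bins. It lay above all WT arrays in 6, against 26.5% of all bins, and below all in 4, against 24.3%. Of the 6 higher bins 4 were within 6 kb of the end, and the 4 lower bins were all beyond 34 kb. At 2 to 3 kb, the bin with the largest difference, amo1D had 0.26, against -0.06, -0.40 and -0.01 in WT, a difference of 0.41 with a standard error of 0.18 (limma adjusted p = 0.926). The differences at 3 to 4 and 5 to 6 kb were 0.38 and 0.35, and the most negative were -0.25 at 37 to 38 kb, -0.22 at 13 to 14 kb and -0.16 at 34 to 35 kb. In 5 kb windows amo1D minus WT was 0.29 at 0 to 5 kb, 0.15 at 15 to 20 kb and -0.14 beyond 35 kb. The 0 to 5 kb difference lay in Cy5 (0.38, against a WT SD of 0.41, n = 3) and hardly in Cy3 (0.09). Beyond 35 kb Cy3 differed by 0.28 and Cy5 by 0.14, and each of these was smaller than the WT SD of its channel. In limma 0 bins passed an adjusted p of 0.05 (0% of all bins), and 0 had an unadjusted p under 0.05, against 2.86% of all bins higher and 0.862% lower. Among the genes amo1D was above all WT arrays at 1 of the 12 coding genes and pseudogenes, SPBCPT2R1.07C, and below all at 1, ftm7, where it had -0.64, against -0.43, -0.49 and -0.16 in WT. Of all genes 27.4% were above and 23.3% below all WT arrays in amo1D.

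In rix1E414K, most of the region lay within the WT range. Of the 4 bins below all WT arrays, a smaller share than the 25.7% of all bins, 3 were the outermost ones. That stretch was picked out after the values were seen. In all, 32 of the 40 bins were above the WT mean, against 48.7% of all bins. At 2 to 3 kb rix1E414K had -0.62, against -0.06, -0.40 and -0.01 in WT, a difference of -0.46 with a standard error of 0.18 (limma adjusted p = 0.863). At 0 to 1 kb it had -0.80, against -0.59, -0.64 and -0.32 in WT, and the bin at 39 to 40 kb, with 2 probes, differed by -0.27. The low ratio at the end went with a high extract signal. Over the outermost 5 kb, log2 Cy3 was 1.19 in amo1D, 1.72 in rix1E414K and 1.20 in pob3D, against 1.23, 0.87 and 1.20 in the WT replicates. Log2 Cy5 there was 1.27 in amo1D, 1.31 in rix1E414K and 1.52 in pob3D, against 1.02, 0.43 and 1.23 in the WT replicates. In Cy3 rix1E414K was the highest of all arrays, while in Cy5 it was above WT and below pob3D. The largest differences upward were at tlh2, 0.42 at 8 to 9 kb, 0.38 at 7 to 8 kb and 0.33 at 9 to 10 kb, where WT replicate 2 alone was far below the other arrays. Over the whole region the difference was 0.11 from the WT mean, -0.04 without WT replicate 2 and 0.41 against replicate 2, which shared its slide. It lay above all WT arrays in 4 bins, against 27.1% of all bins, and below all in 4, against 25.7%. In limma 0 bins passed an adjusted p of 0.05 (0% of all bins), and 1 bin was lower at an unadjusted p under 0.05, against 4.36% of all bins. In Cy3 rix1E414K was above all WT arrays in 16 of the 40 bins, against 38.4% of all bins.

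In pob3D the difference was present among probes with 1 match in the reference as well as among repeated ones. Most of the probes with 1 match lie in the outermost 7.21 kb. Copies of that stretch beyond the assembled left ends of chromosomes I and II and the right end of chromosome I could not be looked for. So 1 match there need not mean 1 place. Probes with 1 match, at a median distance of 5.18 kb, had a mean log2 ratio of 0.03 in amo1D, -0.20 in rix1E414K and 0.28 in pob3D, against -0.16, -0.49 and 0.06 in the WT replicates. Probes with 3 matches, at a median distance of 24.7 kb, had -0.17 in amo1D, -0.11 in rix1E414K and 0.20 in pob3D, against -0.27, -0.56 and 0.01 in the WT replicates. In both classes pob3D was above all WT arrays, by 0.48 and 0.47 relative to the WT mean. Probes with 2 matches, at a median distance of 12.4 kb, differed in pob3D by 0.23, with Cy3 0.30 above WT, and probes with 4 to 6 matches by 0.48. By aligned block, pob3D minus WT was 0.49 beyond the chromosome I left alignment, 0.22 over that alignment, 0.39 over the chromosome I right alignment and 0.53 over the chromosome II left alignment. The block that equals the left end of chromosome II had -0.27 in amo1D, -0.14 in rix1E414K and 0.24 in pob3D, against -0.33, -0.51 and -0.04 in the WT replicates. Its values belong to both ends of chromosome II together. Parts of it also align with the left and right ends of chromosome I, at 99.1% and 98.9% identity, so those ends contribute too.

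Genes for telomere and heterochromatin proteins lie elsewhere in the genome, and 6 of a list of 34 had probes, amo1 among them. Leaving out amo1, 0 of 5 passed an adjusted p of 0.05 in limma in any mutant, but neither did any other gene (0% of all genes). The median difference was -0.06 in amo1D, 0.09 in rix1E414K and 0.03 in pob3D, beside 0.01, -0.01 and -0.02 over all genes. The genes measured were stn1 and trt1, of the telomere cap and telomerase, bqt4, which anchors telomeres at the nuclear envelope, and tas3 and clr1, of heterochromatin assembly.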

How the data were processed

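The deposited scanner files hold, per the file headers, linear intensity values of both channels from Agilent Feature Extraction 12.0.3.1 (version per the submitters' processing notes), already background-subtracted and dye-normalized. The series table holds the authors' linear ratio of Cy5 over Cy3, which equalled the ratio of these processed signals to a relative difference of at most 9.05e-09, and it was not used further. Genotypes and the dyes come from the labels; there was no dye swap.

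For each of 43993 probes log2 of processed Cy5 over Cy3 was taken without spots marked as outliers. The median over all probes was then subtracted per array, so a shift common to all probes cannot be seen. Single channels were centred in the same way. Probes were averaged in 1 kb bins counted from the last tiled base, or over genes holding their centres (at least 2 probes), and fitted with limma 3.58.1 in R 4.3.3, 1 coefficient per genotype, Benjamini-Hochberg over 2203 bins or 2178 genes of chromosome II at 0.05. The residual spread, with 2 degrees of freedom, comes from WT alone, so a lone mutant array is taken to vary like WT. With a WT array left out, fewer degrees of freedom remain, and calls from such a fit are weaker still. The fit was tested on simulated data. The number of arrays limits the precision.

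The offset to ASM294v3 was found by correlating GC content with Cy3, and the best offset lay within 5 bases of 900 or 1800 in all 42 windows. Matches are exact 60-base identities, and alignments of at least 150 columns come from blastn 2.17.0. Euchromatin is chromosome II outside the centromere, the mating-type interval and its right end.

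Named were tlh2, every coding gene and pseudogene, the bins highest and lowest in WT, those with the largest mutant differences, and both edge bins. The region and the lists were picked with earlier results of these data known, and the rule for its probes uses position alone. Other normalizations, backgrounds, centrings, filters, bin sizes and left-out replicates were tried. The normexp and unsubtracted alternatives used spot medians, since the files hold no spot means.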

Additional observations from a re-analysis of the deposited data

How the results depend on the processing

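Of 203 alternative values 192 kept their direction and their side of the threshold, or moved by less than the spread between WT arrays. Many of the 192 are limma counts that stayed at 0, which says little with 1 array per mutant. The 192 also include the amo1D and rix1E414K region means without WT replicate 2, which changed sign, to -0.038 and -0.045, by less than that spread. Leaving out 1 WT array at a time, the region mean differed from WT by -0.038 to 0.24 in amo1D, -0.045 to 0.23 in rix1E414K and 0.26 to 0.53 in pob3D, and the WT level was -0.34 to -0.062. The other settings gave 0.17 to 0.48 in pob3D. The rix1E414K region mean was 0.41 against the WT array of its slide. Bins above all WT arrays, a count added after seeing the data, numbered 6 to 21 in amo1D, 4 to 23 in rix1E414K and 28 to 31 in pob3D when 1 WT array was left out, and the amo1D count was 21 and the rix1E414K count 23 without WT replicate 3, the highest WT array (34% and 34.5% of all bins), and the rix1E414K count 7 without WT replicate 1 (33.7% of all bins). The pob3D counts were 29, 28 and 31 without WT replicates 1, 2 and 3, against 34.5%, 35% and 35.9% of all bins. With probes of 1 match only, 14 of the 19 bins left were above all WT arrays in pob3D, against 26.9% of all bins so measured. Bins past the limma threshold numbered 0 to 1 in pob3D when 1 WT array was left out, with 1 without WT replicate 2, and 0 in amo1D and rix1E414K under every setting run. The sign of the tlh2 difference turned in amo1D without WT replicate 2 (-0.036) and within the slide (-0.055), and the rix1E414K one was 0.80 within its slide. In pob3D it turned with loess within arrays (-0.11), without WT replicate 2 (-0.10) and within the slide (-0.077). With 1 WT array left out, the tlh2 difference was -0.036 to 0.35 in amo1D, 0.053 to 0.44 in rix1E414K and -0.10 to 0.29 in pob3D. The cause was not tested. No paired test was possible because each mutant has 1 array, beside 1 WT array on its slide. The slide as a block leaves no residual degrees of freedom, so within-slide differences stand in its place. Nearly all probes were well above background. Each mutant has 1 array, and the spread among WT arrays also bears on the calls: without WT replicate 2, 1.59% of all bins passed in pob3D, against 0% with it.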
